A study of Mus musculus with 12 samples.

Results

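The amino acid response and ATF4 program is described here across embryoid bodies with and without Trim33. Its 47 members were chosen by function and listed by symbol: the eIF2 alpha kinases, Atf4 and the factors around it, and ATF4 targets for amino acid synthesis, one-carbon metabolism, amino acid transport and tRNA charging. All 47 were found among the 24015 gene rows, and all 47 passed the filter on low counts, as did 14356 genes in all. Embryoid bodies are clumps of mouse embryonic stem cells that begin to differentiate in suspension. The 12 RNA libraries form 4 groups of 3: control and Trim33-deficient bodies, each on day 2 and on day 2.5 of differentiation. Per the labels, the cell lines were outbred, came from embryos with floxed Trim33 on both chromosomes and carried UbcCreERT2, a tamoxifen-dependent Cre under the ubiquitin C promoter, which is active in most cell types. The lines were at passages 8 to 10 and were kept in LIF and 2i without feeder cells before differentiation. The control group is labelled wildtype, and the Trim33-deficient group was made with 4-hydroxytamoxifen on day 1, at 24 hours. The labels speak of independent pairs of control and Trim33-deficient bodies. Whether controls received tamoxifen, and how many lines were used, is not given in the sources used here, so an effect of tamoxifen or of Cre cannot be told apart from loss of Trim33.

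The integrated stress response links stress to protein synthesis. Each of its kinases senses a different stress and phosphorylates the alpha subunit of the initiation factor eIF2, which lowers translation in general and raises translation of ATF4. ATF4, with C/EBP family partners, then binds C/EBP-ATF response elements (CAREs) and raises genes that make, import and charge amino acids. In stem cells the same genes feed rapid growth, since serine and one-carbon enzymes supply nucleotides. ATF4 is regulated largely at translation, so the Atf4 mRNA measured here does not report the amount of ATF4 protein.

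The promoters of all members with a window were read for the core of this element, TGATGNAA, on both strands. RefSeq promoter windows (GRCm38.p6, 250 bases before to 50 bases after a start site) were matched by symbol for 37 of the 47 members. Of these, 11 (29.7%) held the core, against 4.51% of all 27025 genes with a window, and 9 (24.3%) held the longer form TGATGNAAT or TGATGNAAC, against 1.95%. The core was in 5 of 13 matched members that rose in Trim33-deficient bodies on day 2.5, in 1 of 5 that fell and in 5 of 19 that did not pass. Members were chosen by function, many as ATF4 targets, so this contrast describes the list and is not a finding of these libraries. A match is a description of the letters in this window, not of binding. The 5 windows below belong to the members that rose, and are shown to let the letters be seen beside the levels given further on. Each runs from 220 bases before the start site through the first 30 bases from it, on the gene's own strand, with the core in capitals, which lies on the opposite strand in all 5.
Slc1a4, chr11:20332684-20332933, minus strand: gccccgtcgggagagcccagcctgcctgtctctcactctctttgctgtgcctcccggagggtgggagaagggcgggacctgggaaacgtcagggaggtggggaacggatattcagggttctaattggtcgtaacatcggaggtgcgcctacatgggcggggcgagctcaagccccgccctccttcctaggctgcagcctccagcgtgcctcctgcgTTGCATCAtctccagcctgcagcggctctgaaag
Trib3, chr2:152344031-152344280, minus strand: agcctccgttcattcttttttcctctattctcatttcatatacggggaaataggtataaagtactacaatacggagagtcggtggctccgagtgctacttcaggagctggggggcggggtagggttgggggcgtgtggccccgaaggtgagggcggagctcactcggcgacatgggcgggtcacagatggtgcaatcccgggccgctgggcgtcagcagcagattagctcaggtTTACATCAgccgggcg
Nupr1, chr7:126625441-126625690, minus strand: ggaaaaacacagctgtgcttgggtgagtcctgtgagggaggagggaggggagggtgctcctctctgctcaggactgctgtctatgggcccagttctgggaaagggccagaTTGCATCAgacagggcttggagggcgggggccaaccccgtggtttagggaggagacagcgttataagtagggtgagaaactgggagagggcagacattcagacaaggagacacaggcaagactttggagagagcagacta
Chac1, chr2:119351022-119351271, plus strand: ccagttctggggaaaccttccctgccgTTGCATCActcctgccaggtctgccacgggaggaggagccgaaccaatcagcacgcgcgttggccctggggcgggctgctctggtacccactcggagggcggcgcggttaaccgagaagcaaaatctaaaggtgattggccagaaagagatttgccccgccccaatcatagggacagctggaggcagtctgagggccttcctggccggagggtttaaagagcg
Iars, chr13:49681910-49682159, plus strand: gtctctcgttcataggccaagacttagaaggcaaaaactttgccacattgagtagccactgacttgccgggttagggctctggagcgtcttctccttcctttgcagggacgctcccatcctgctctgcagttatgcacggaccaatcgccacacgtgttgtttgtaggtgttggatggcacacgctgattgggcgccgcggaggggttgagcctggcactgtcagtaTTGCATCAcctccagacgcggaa

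The core began 4 bases upstream of the start site in Slc1a4, 110 in Nupr1 and 193 in Chac1. In Trib3 and Iars it began 14 and 7 bases downstream of the start site. The windows of Atf4, Eif2ak3, Slc38a2 and Ddit3 did not hold these letters, which says nothing about elements elsewhere in those genes. Asns, Pycr1, Gars, Tars, Aars and Slc7a11 also held the core, and Aars and Slc7a11 held it at 2 positions.

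**Figure D1:**
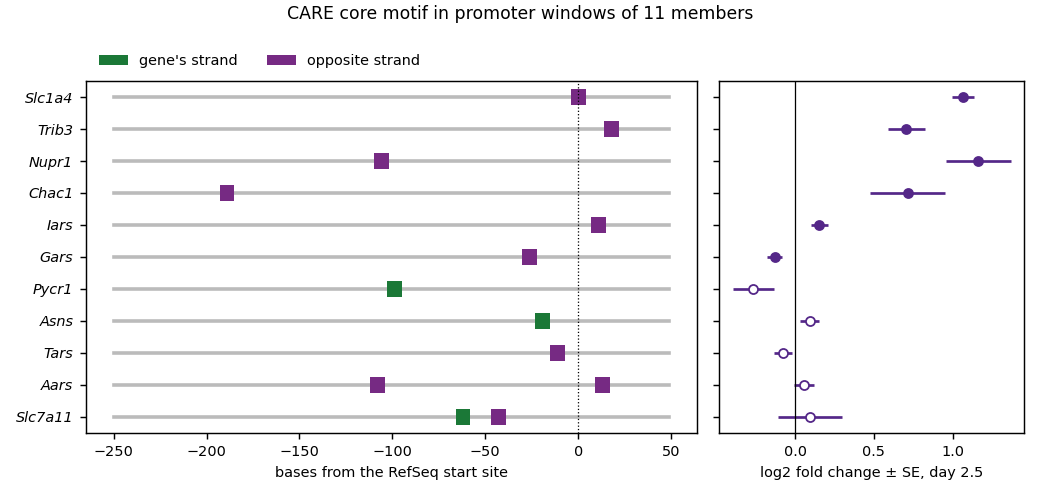
Position of the core motif TGATGNAA in the promoter windows of 11 members, in bases from the RefSeq start site and coloured by strand (left), beside the log2 fold change ± SE of Trim33-deficient against control on day 2.5 (right, n = 3 each; filled points passed at an adjusted p under 0.05). The upper 5 genes rose, Gars fell, and the lower 5 did not pass.

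Libraries held 10066338 to 16529627 counts assigned to genes. Trim33 itself stood at 261 to 277 CPM (normalised read counts, scaled to a common library size with TMM factors) in day 2 controls and 60.5 to 69.6 in day 2 Trim33-deficient libraries, and at 239 to 264 against 54.4 to 62.8 on day 2.5. Of the pluripotent and epiblast markers, Pou5f1 had group means of 829 to 937 CPM and Epcam of 398 to 429 CPM. Over all 8 of these markers the log2 difference between genotypes on day 2.5 ran from -1.40 to 0.34, with a median of -0.20. Otx2, another of them, had 2379, 2552 and 2784 counts in day 2.5 controls and 707, 784 and 1704 in Trim33-deficient libraries, before scaling. Blood markers summed to at most 0.530 CPM in any library, with Hbb-bh1 at 0 in all, and its 4 genes did not pass the count filter. Visceral endoderm markers (6 genes) summed to 5.73 to 7.02 CPM in day 2.5 controls and 7.61 to 8.73 in Trim33-deficient bodies. Of the 3 tested Apob and Sox17 rose (log2 0.72 and 1.84) and Amn fell (-0.61), and Afp, Ttr and Apoa1 each reached at most 0.240 CPM in any library, at or under 3 counts. Trophoblast markers summed to 11.6 to 13.3 CPM in day 2.5 controls and 30.4 to 35.7 in Trim33-deficient bodies, where 3 of 5 tested rose and Elf5 was at 0, and epiblast markers to 5927 to 6477 and 4284 to 5018 CPM, where 4 of 8 fell and 1 rose. Fibroblast markers summed to 35.0 to 43.9 and 22.5 to 25.5 CPM, where 1 of 5 tested rose and 3 fell, and Postn was at 0. Streak markers summed to 35.3 to 46.4 and 15.2 to 22.4 CPM, where 3 of 4 fell. Neuron markers summed to 60.3 to 69.4 and 61.1 to 66.1 CPM, where 4 of 4 did not pass and 1 had an unadjusted p under 0.05. These day 2.5 counts stand beside 22.0% of all genes that rose and 20.7% that fell. The part of such shifts in cell type in the results below was not tested, and in bulk libraries fewer cells of a type and less RNA per cell cannot be told apart. Rn45s, a precursor of ribosomal RNA, made up 11.9% of the counts of day 2.5 control replicate 2 and 7.87% of those of replicate 1 of the day 2 Trim33-deficient group, with 0.609 to 1.67% in the rest. The mean log2 deviation of 20 hypoxia genes was 0.61 in day 2 control replicate 2, 0.38 in day 2.5 control replicate 2 and -0.32 to 0.04 in the other 10.

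On day 2.5 the program did not move as a block in Trim33-deficient bodies. Of its regulators 5 of 7 rose and of its transporters 5 of 8, while Phgdh, Mthfd1l, Shmt1, Slc7a3 and 3 tRNA synthetases fell. Of the 47 members 17 rose, 7 fell and 23 did not pass. Among all genes tested, 42.8% passed on that day, 22.0% rising and 20.7% falling, against 36.2% of the members rising and 14.9% falling. The median log2 fold change of the members was 0.09 (range -0.58 to 1.21), beside -0.0096 over all genes tested. Leaving out either day 2.5 control replicate 3 or day 2.5 Trim33-deficient replicate 1 left 11 that rose, where 17.7% of all genes rose in each fit. On day 2, 1 day after tamoxifen, 3 members rose, 3 fell and 41 did not pass, which is 6.38% each way against 5.94 and 3.90% of all genes (9.84% either way), with a median of -0.06 beside -0.0049. All 6 passed in the same direction on day 2.5. The number that fell on day 2 was 1 without day 2 control replicate 3 or day 2 Trim33-deficient replicate 1, and 6 without day 2 control replicate 2. Without the 3 libraries that stood apart in Rn45s or hypoxia genes, 5 rose and 11 fell on day 2, where 6.45 and 4.73% of all genes did, and 20 rose and 12 fell on day 2.5, where 23.5 and 22.0% did. Unless another fit is named, an adjusted p given for a gene comes from edgeR's quasi-likelihood test with 3 libraries a group. The Benjamini-Hochberg adjustment was made over all genes tested. Fits with libraries left out used the same test with fewer libraries in the groups they came from.

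**Figure D2:**
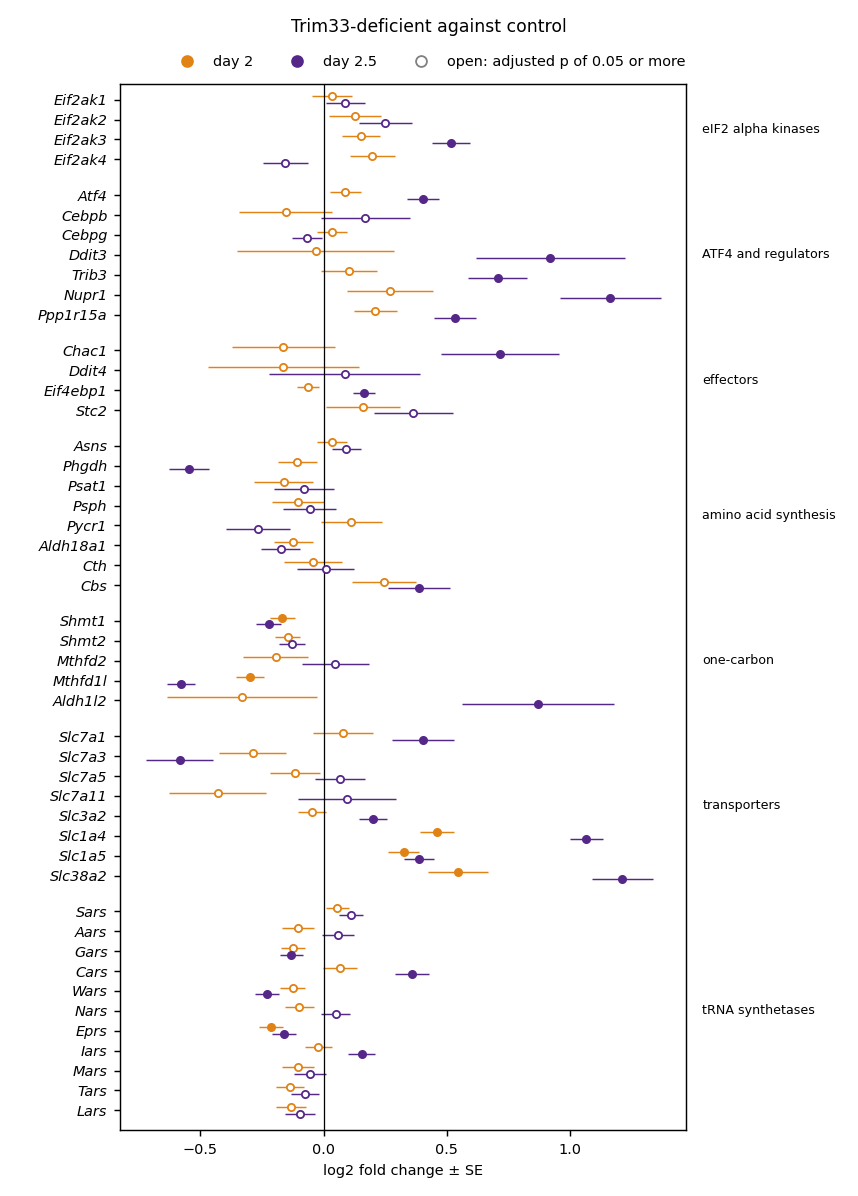
Log2 fold change ± SE of Trim33-deficient against control for each of the 47 members on day 2 (orange) and day 2.5 (purple), grouped by role (n = 3 libraries a group; filled points passed at an adjusted p under 0.05). On day 2, 6 points are filled, and on day 2.5, 24.

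Of the 4 eIF2 alpha kinases 1 rose on day 2.5, Eif2ak3, and 0 passed on day 2, where DESeq2 also passed 0 and 1 had an unadjusted p under 0.05. Eif2ak3 encodes PERK, the sensor of unfolded protein in the endoplasmic reticulum. On day 2 Eif2ak3 stood at 39.2, 40.3 and 38.2 CPM in control and 42.7, 42.2 and 45.6 in Trim33-deficient replicates 1, 2 and 3, and on day 2.5 at 38.4, 41.6 and 38.8 and 61.7, 58.2 and 49.996. Its 3 day 2.5 Trim33-deficient libraries were the highest of all 12. It rose 1.43-fold on day 2.5 (log2 0.52 ± 0.08 SE, adjusted p = 7.57e-05), and stood at log2 0.15 ± 0.08 SE (adjusted p = 0.246) on day 2. Eif2ak4, the GCN2 kinase that senses uncharged tRNA, gave a log2 difference of 0.20 on day 2 and -0.15 on day 2.5 (adjusted p = 0.194 and 0.181). Eif2ak1, which responds to lack of heme, and Eif2ak2, which responds to RNA duplexes, stood at 0.09 and 0.25 on day 2.5 (adjusted p = 0.395 and 0.0704).

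Of the 7 regulators around ATF4, 5 rose on day 2.5 and 0 passed on day 2, where DESeq2 also passed 0 and 1 had an unadjusted p under 0.05. Atf4 levels in control bodies were 292, 265 and 314 CPM on day 2 and 226, 209 and 196 on day 2.5, and in Trim33-deficient bodies 313, 306 and 307 and then 289, 283 and 262. The 6 day 2 libraries overlapped, and every day 2.5 control lay below every other library. Atf4 rose by a log2 value of 0.40 ± 0.06 on day 2.5 (adjusted p = 0.000121), against 0.09 ± 0.06 on day 2 (adjusted p = 0.417).

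Trib3, a pseudokinase that ATF4 induces and that restrains it, was also low in day 2.5 controls. For Trib3, the 3 controls and the 3 Trim33-deficient libraries gave 26.3, 21.6 and 27.8 and 25.99, 28.5 and 26.5 CPM on day 2, then 17.6, 13.1 and 14.4 and 27.2, 24.7 and 22.1 on day 2.5. The day 2.5 controls were again the lowest 3 libraries. The difference on day 2.5 was log2 0.71 ± 0.12 SE (adjusted p = 0.000214), and that on day 2 was 0.10 (adjusted p = 0.626). Nupr1, a small stress-induced chromatin protein, was low in day 2.5 controls. On day 2 Nupr1 stood at 6.81, 10.1 and 9.21 CPM in control and 8.80, 11.69 and 10.8 in Trim33-deficient replicates 1, 2 and 3, and on day 2.5 at 3.28, 3.02 and 3.09 and 9.02, 6.29 and 5.89. It was 2.24-fold higher in Trim33-deficient than in control bodies on day 2.5 (log2 1.16 ± 0.20 SE, adjusted p = 0.000293), with no overlap.

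Ddit3 and Ppp1r15a were not low in day 2.5 controls but high in day 2.5 Trim33-deficient bodies. Ddit3 encodes CHOP, a transcription factor of prolonged stress. Ddit3 levels in control bodies were 8.25, 15.4 and 7.48 CPM on day 2 and 8.07, 12.97 and 7.24 on day 2.5, and in Trim33-deficient bodies 9.55, 9.13 and 11.68 and then 22.3, 17.8 and 12.7. Replicate 2 was the highest control on both days. On day 2 it lay above all 3 Trim33-deficient libraries, and on day 2.5 above 1 of them. Ddit3 rose on day 2.5 (log2 0.92 ± 0.30 SE, adjusted p = 0.0308), but leaving out control replicate 1 or 3 of that day gave adjusted p values of 0.102 and 0.108, and leaving out Trim33-deficient replicate 1 or 2 gave 0.109 and 0.0679. With every gene that had a count tested it was 0.0667. Ppp1r15a encodes GADD34, which directs a phosphatase back to eIF2 alpha. For Ppp1r15a, the 3 controls and the 3 Trim33-deficient libraries gave 29.4, 29.9 and 30.5 and 38.2, 31.1 and 34.97 CPM on day 2, then 30.98, 31.8 and 28.02 and 46.04, 45.4 and 39.8 on day 2.5. The 3 day 2.5 Trim33-deficient libraries were the highest of all, and the rise was log2 0.53 ± 0.08 SE (adjusted p = 0.000137). In these 3 libraries Atf4, Trib3, Ddit3 and Ppp1r15a were each highest in replicate 1 and lowest in replicate 3, and Rn45s took 1.67, 1.53 and 1.08% of counts in replicates 1, 2 and 3. Its part in these rises was not tested. The dimer partners Cebpb and Cebpg stood at 0.17 and -0.07 on day 2.5 (adjusted p = 0.477 and 0.384).

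**Figure D3:**
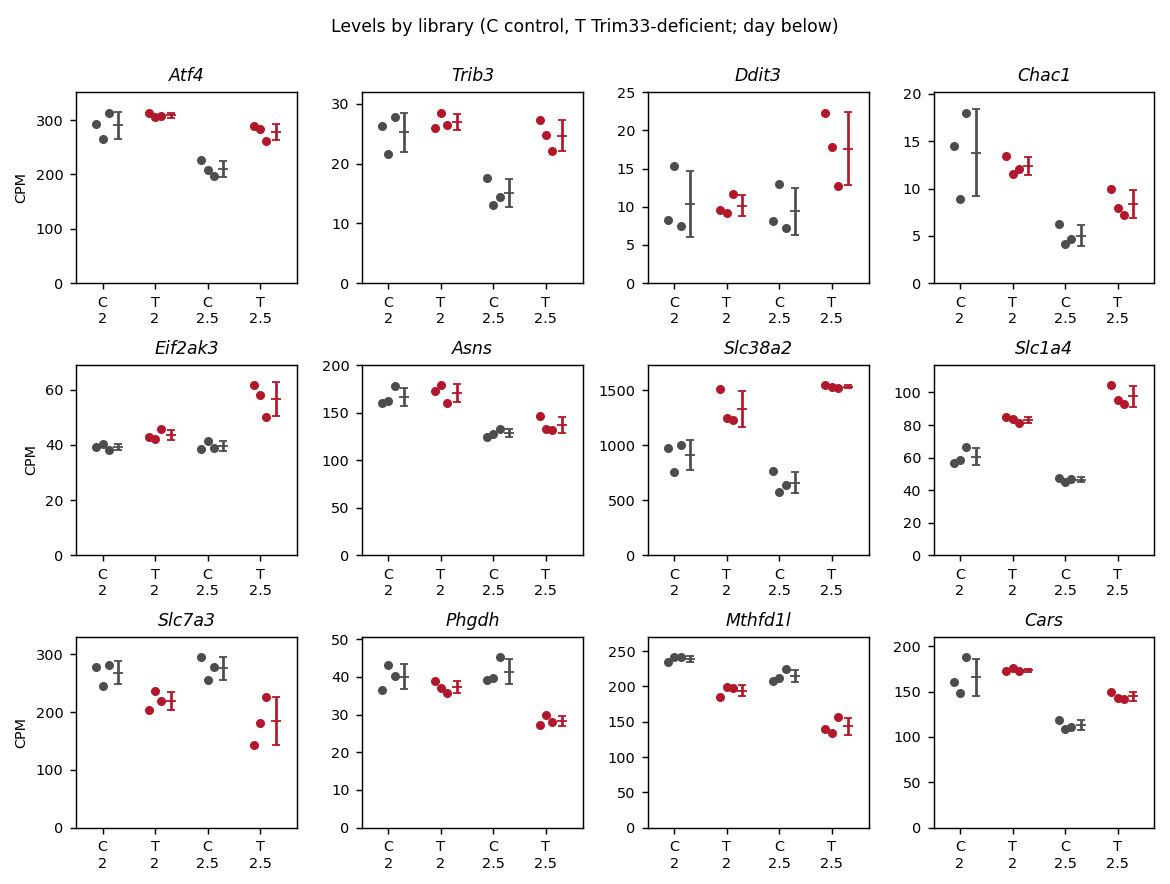
CPM of 12 members in each library (points) with the group mean and SD (bars, n = 3) for control (C, grey) and Trim33-deficient (T, red) bodies on day 2 and day 2.5. Atf4, Trib3 and Chac1 were lowest in the 3 day 2.5 controls, Slc38a2 and Slc1a4 were higher in every Trim33-deficient library than in every control, and Phgdh and Mthfd1l were lowest in the 3 day 2.5 Trim33-deficient libraries.

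Of the 4 other stress effectors, 2 rose on day 2.5. Chac1, which degrades glutathione and is a sensitive ATF4 target, was lowest in day 2.5 controls. On day 2 Chac1 stood at 14.5, 8.89 and 18.02 CPM in control and 13.5, 11.6 and 12.1 in Trim33-deficient replicates 1, 2 and 3, and on day 2.5 at 6.23, 4.18 and 4.66 and 9.97, 7.90 and 7.20. The groups overlapped on day 2 and not on day 2.5, when it was 1.64-fold higher without Trim33 (log2 0.71 ± 0.24 SE, adjusted p = 0.0263). That adjusted p was 0.0839 and 0.0933 without day 2.5 control replicate 2 or 3, and 0.107 without Trim33-deficient replicate 1. Eif4ebp1 encodes 4E-BP1, a repressor of cap-dependent translation. Eif4ebp1 levels in control bodies were 249.9, 249.5 and 249 CPM on day 2 and 190.4, 189 and 203 on day 2.5, and in Trim33-deficient bodies 249, 232 and 235 and then 222, 209 and 221. It rose by 0.16 ± 0.05 on day 2.5 (adjusted p = 0.00968), with no overlap.

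Ddit4, an mTORC1 inhibitor that also responds to low oxygen, did not pass on either day. Its highest levels were 427 CPM in day 2 control replicate 2 and 322 CPM in day 2.5 control replicate 2, the libraries that stood high in hypoxia genes, against 173 to 268 CPM in the other 10. Without the 3 libraries that stood apart it was 0.35 higher in Trim33-deficient bodies on day 2.5 (adjusted p = 0.0321), and 0.33 higher on day 2 (adjusted p = 0.129). That fit was chosen after the data were seen and leaves out the highest Ddit4 control of each day, so it cannot decide whether Ddit4 rose. Stc2, a secreted glycoprotein, stood at 0.36 ± 0.16 on day 2.5 (adjusted p = 0.0808), and at 0.45 without those libraries (adjusted p = 0.00770). Its highest day 2.5 control, replicate 2, is among the libraries left out, so the same limit holds. The log2 deviations of Stc2 from its mean were -0.48, -0.30 and -0.58 in day 2.5 controls.

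Of 8 genes for asparagine, serine, proline and cysteine synthesis, 1 rose and 1 fell on day 2.5 (12.5% each). Of all genes 22.0% rose and 20.7% fell on that day. On day 2, where 9.84% of all genes passed, 0 of the 8 did, 0 had an unadjusted p under 0.05 and DESeq2 also passed 0. Asns, asparagine synthetase and a classic ATF4 target, overlapped between the genotypes on both days. For Asns, the 3 controls and the 3 Trim33-deficient libraries gave 160.0, 163 and 178 and 173, 179 and 160.0 CPM on day 2, then 125, 128 and 133 and 147, 133 and 132 on day 2.5. Its differences were log2 0.03 ± 0.06 SE (adjusted p = 0.773) on day 2 and log2 0.09 ± 0.06 SE (adjusted p = 0.229) on day 2.5. Phgdh, which opens the serine pathway, went the other way from Atf4. On day 2 Phgdh stood at 36.5, 43.2 and 40.4 CPM in control and 39.03, 37.1 and 35.7 in Trim33-deficient replicates 1, 2 and 3, and on day 2.5 at 39.2, 39.6 and 45.2 and 27.3, 29.8 and 28.03. Every day 2.5 Trim33-deficient library lay below every other library. Phgdh fell by 0.55 ± 0.08 (log2) on day 2.5 (adjusted p = 7.62e-05). The next enzymes of that pathway, Psat1 and Psph, stood at -0.08 and -0.06 (adjusted p = 0.631 and 0.704). Without the 3 libraries that stood apart Psat1 gave log2 values of -0.30 on day 2 and -0.20 on day 2.5 (adjusted p = 0.00511 and 0.00916). That fit was chosen after the data were seen and leaves out the lowest Psat1 control of each day, replicate 2. In log2 deviation from its mean over all libraries, Psat1 stood at 0.33, 0.11 and 0.53 in day 2 controls. It stood at -0.07, -0.49 and -0.08 in day 2.5 controls, so this fit cannot decide whether Psat1 fell. The proline enzymes Pycr1 and Aldh18a1 stood at -0.27 and -0.17 (adjusted p = 0.111 and 0.0891).

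Cbs, which opens the route from homocysteine to cysteine, was the member of this role that rose. Cbs levels in control bodies were 25.5, 20.96 and 25.3 CPM on day 2 and 29.3, 19.8 and 25.9 on day 2.5, and in Trim33-deficient bodies 30.2, 27.6 and 27.5 and then 34.4, 36.1 and 28.3. Control and Trim33-deficient libraries overlapped on day 2.5, with a difference of log2 0.39 ± 0.13 SE (adjusted p = 0.0225). Its adjusted p was 0.0737 and 0.0517 when control replicate 2 or 3 of that day was left out, and 0.0783 and 0.0973 when Trim33-deficient replicate 1 or 2 was. Cth, the next enzyme, stood at 0.01 (adjusted p = 0.958).

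Among the folate enzymes, the mitochondrial formate producer Mthfd1l fell most clearly. For Mthfd1l, the 3 controls and the 3 Trim33-deficient libraries gave 235, 241 and 241 and 186, 199 and 198 CPM on day 2, then 208, 211 and 224 and 139.7, 134 and 157 on day 2.5. The groups did not overlap on either day. It fell by 0.30 ± 0.06 on day 2 (adjusted p = 0.00502) and by 0.58 ± 0.06 on day 2.5 (adjusted p = 2.06e-06). Shmt1, the cytosolic serine hydroxymethyltransferase, was also lower. On day 2 Shmt1 stood at 166, 156 and 158 CPM in control and 141, 144 and 142 in Trim33-deficient replicates 1, 2 and 3, and on day 2.5 at 157, 139.9 and 156 and 127, 129 and 131. The genotypes did not overlap on either day, and the fall on day 2.5 was log2 -0.22 ± 0.05 SE (adjusted p = 0.00203). Its day 2 call was log2 -0.17 ± 0.05 SE (adjusted p = 0.0444), and was lost when any day 2 library except control replicate 2 was left out (adjusted p = 0.0912 to 0.138), and without day 2.5 control replicate 3 or any day 2.5 Trim33-deficient library (0.0532 to 0.0670). It was also lost with every gene that had a count tested (0.0676) and with only the compared groups fitted (0.0633).

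The mitochondrial forms Shmt2 and Mthfd2, both known ATF4 targets, stood at -0.13 and 0.05 on day 2.5 (adjusted p = 0.0545 and 0.802). Aldh1l2, a mitochondrial formyltetrahydrofolate dehydrogenase, was near the limit of these libraries. Aldh1l2 levels in control bodies were 1.36, 1.47 and 2.44 CPM on day 2 and 1.18, 1.24 and 0.756 on day 2.5, and in Trim33-deficient bodies 1.48, 1.19 and 1.54 and then 2.18, 2.27 and 1.37. It rose on day 2.5 (log2 0.87 ± 0.31 SE, adjusted p = 0.0317), a call that DESeq2 did not make (adjusted p = 0.0694) and that was lost when replicate 3 of the day 2.5 controls was left out (0.147), or replicate 1 or 2 of the Trim33-deficient bodies (0.102 and 0.112).

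On day 2.5 the largest rise and the largest fall among the members were both of transporters. Their median log2 value was 0.29, below the 0.53 of the regulators. Of the 8 transporters 3 (37.5%) rose on day 2, and 5 (62.5%) rose and 1 (12.5%) fell on day 2.5. Of all genes 5.94% rose on day 2, and 22.0% rose and 20.7% fell on day 2.5. Slc38a2 encodes SNAT2, the sodium-coupled importer of small neutral amino acids that cells raise when starved of them. For Slc38a2, the 3 controls and the 3 Trim33-deficient libraries gave 976, 757 and 1002 and 1515, 1246 and 1231 CPM on day 2, then 763, 579 and 644 and 1549, 1532 and 1521 on day 2.5. Every Trim33-deficient library lay above every control of either day. It was 1.46-fold higher on day 2 (log2 0.55 ± 0.12 SE, adjusted p = 0.0196) and 2.32-fold higher on day 2.5 (log2 1.21 ± 0.12 SE, adjusted p = 2.14e-05). The day 2 call was lost without day 2 Trim33-deficient replicate 1, one of the libraries rich in Rn45s (log2 0.44, adjusted p = 0.0707). Slc1a4 encodes ASCT1, an exchanger of alanine, serine, cysteine and threonine. On day 2 Slc1a4 stood at 56.5, 58.6 and 66.7 CPM in control and 85.1, 83.6 and 81.4 in Trim33-deficient replicates 1, 2 and 3, and on day 2.5 at 47.6, 44.95 and 47.03 and 105, 95.2 and 92.9. Again no Trim33-deficient library fell within the controls. It rose 1.38-fold on day 2 (log2 0.46 ± 0.07 SE, adjusted p = 0.000829) and 2.09-fold on day 2.5 (log2 1.07 ± 0.07 SE, adjusted p = 2.48e-08).

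Slc1a5, the related glutamine exchanger ASCT2, rose on both days. Slc1a5 levels in control bodies were 95.9, 113 and 109 CPM on day 2 and 93.1, 83.8 and 83.9 on day 2.5, and in Trim33-deficient bodies 134, 135 and 129 and then 112, 112 and 117. The genotypes did not overlap within a day, and the rises were 0.32 ± 0.06 and 0.39 ± 0.06 (adjusted p = 0.00502 and 0.000144). Slc7a3, a carrier of arginine and lysine, was the transporter that fell. For Slc7a3, the 3 controls and the 3 Trim33-deficient libraries gave 278, 245 and 281 and 203, 236 and 218 CPM on day 2, then 295, 255 and 278 and 144, 181 and 227 on day 2.5. Its Trim33-deficient libraries lay below the controls of the same day, and the fall on day 2.5 was log2 -0.58 ± 0.14 SE (adjusted p = 0.00598). Slc7a1, another carrier of these amino acids, rose by 0.40 ± 0.13 on day 2.5 (adjusted p = 0.0189). It did not pass when control replicate 2 or 3 (0.0654 and 0.0691) or Trim33-deficient replicate 1 (0.0782) of that day was left out. Slc3a2, the heavy chain shared by several exchangers, rose by 0.20 ± 0.06 (adjusted p = 0.00975), while its light chains Slc7a5, for leucine, and Slc7a11, for cystine, stood at 0.07 and 0.09 (adjusted p = 0.624 and 0.733).

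The 11 tRNA synthetases, which attach amino acids to their tRNAs, showed small differences in both directions: 2 rose, 3 fell and 6 did not pass on day 2.5, with a median of -0.06. Without the 3 libraries that stood apart 6 fell, and without day 2.5 control replicate 1, or without Trim33-deficient replicate 1 or 2 of that day, 1 did. Of all genes 22.0% fell in the first of these fits, and 19.7, 15.3 and 16.4% in the others. Cars, for cysteine, had the largest rise. On day 2 Cars stood at 160.2, 149 and 188 CPM in control and 172, 175 and 173 in Trim33-deficient replicates 1, 2 and 3, and on day 2.5 at 119, 109 and 111 and 149.9, 143 and 141. The genotypes overlapped on day 2 and not on day 2.5, when the rise was log2 0.36 ± 0.07 SE (adjusted p = 0.000626). Iars, for isoleucine, rose by 0.15 ± 0.05 (adjusted p = 0.0312). Iars levels in control bodies were 456, 424 and 471 CPM on day 2 and 402, 349.8 and 365 on day 2.5, and in Trim33-deficient bodies 444, 458 and 429 and then 412, 415 and 416. Its day 2.5 groups did not overlap, but the call was lost with upper-quartile factors and without day 2.5 control replicate 2 or 3 or any of the 3 Trim33-deficient libraries (adjusted p = 0.0681 to 0.105).

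Wars, for tryptophan, fell on day 2.5. For Wars, the 3 controls and the 3 Trim33-deficient libraries gave 159.8, 144 and 159 and 142, 142 and 140.3 CPM on day 2, then 147, 140.5 and 150.4 and 123, 124 and 127 on day 2.5. Its day 2.5 Trim33-deficient libraries were the lowest 3 of the 12, with a difference of log2 -0.23 ± 0.05 SE (adjusted p = 0.00148). Eprs, for glutamate and proline, fell on both days. On day 2 Eprs stood at 661, 624 and 669 CPM in control and 554, 569 and 561 in Trim33-deficient replicates 1, 2 and 3, and on day 2.5 at 626, 558 and 578 and 517, 519.8 and 539.9. The genotypes did not overlap within a day. The differences were log2 -0.21 ± 0.05 SE (adjusted p = 0.0135) and log2 -0.16 ± 0.05 SE (adjusted p = 0.0149). Among the day 2 libraries, leaving out replicate 3 of the controls (0.0706) or replicate 1 of the Trim33-deficient bodies (0.0569) ended its day 2 call, and leaving out control replicate 1 (0.0757) or Trim33-deficient replicate 1 (0.0569) or 2 (0.0544) of day 2.5 ended that of day 2.5. Gars, for glycine, stood at log2 -0.13 ± 0.05 SE (adjusted p = 0.0362), which no longer passed when replicate 1 or 3 of the day 2.5 controls, or 1 or 2 of the Trim33-deficient bodies, was left out (adjusted p = 0.0969 to 0.116), or with only the compared groups fitted (0.0623) or the Rn45s row removed (0.0541). The other 6, among them Aars, Sars and Nars, ranged from -0.10 for Lars, for leucine, to 0.11 for Sars, for serine, on day 2.5.

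The passage from day 2 to day 2.5 was the second question of the design, and in control bodies most members were lower on day 2.5. Of the 47 members 27 fell, 0 rose and 20 did not pass, where 16.1% of all genes passed, 7.91% falling and 8.20% rising. DESeq2 also gave 0 that rose, and 1 member, Eif2ak4, rose at an unadjusted p under 0.05. The median log2 fold change was -0.28 beside -0.0025 over all genes, and 10 of 11 tRNA synthetases and 6 of 8 transporters fell. The calls of Psph, Slc7a5, Slc38a2, Gars and Eprs were each lost without at least 1 control library (adjusted p of 0.0515 to 0.170). Nupr1 fell by 1.47 ± 0.20 (adjusted p = 0.000233), and Chac1 by 1.44 ± 0.23 (adjusted p = 0.00105). Shmt2 fell from 158, 180.0 and 171 CPM to 119, 125 and 119.7 CPM, by 0.49 ± 0.05 (adjusted p = 2.90e-05). Cars fell by 0.55 ± 0.07 and Eif4ebp1 by 0.36 ± 0.05 (adjusted p = 0.000120 and 0.000141). Atf4 itself fell by 0.46 ± 0.06 (adjusted p = 0.000233), and Asns by 0.37 ± 0.06 (adjusted p = 0.000732). The synthetase that did not pass was Wars (-0.08, adjusted p = 0.307).

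In Trim33-deficient bodies the same interval gave 19 members that fell, 3 that rose and 25 that did not pass, where 16.0% of all genes passed, 6.93% falling and 9.09% rising. The median was -0.18 beside -0.0044, and 9 of 11 tRNA synthetases fell, which became 4 without day 2 replicate 2 and 5 without day 2.5 replicate 2. Of all genes 2.82 and 2.99% fell in these fits. Shmt2 fell by 0.47 ± 0.05 (adjusted p = 2.05e-05), Mthfd1l by 0.44 ± 0.06 (adjusted p = 0.000114) and Asns by 0.32 ± 0.06 (adjusted p = 0.00214). The 3 that rose were Eif2ak3 by 0.38, Ppp1r15a by 0.34 and Slc1a4 by 0.23 (adjusted p = 0.00369, 0.0133 and 0.0266). The Ppp1r15a call was lost when day 2 replicate 2 or day 2.5 replicate 1 or 2 was left out (0.0629 to 0.0920), and that of Slc1a4 when replicate 2 or 3 of day 2 or 1 or 2 of day 2.5 was (0.0615 to 0.141). Pycr1 fell by 0.65 ± 0.13 (adjusted p = 0.00291). Atf4 stood at -0.15 ± 0.06 (adjusted p = 0.119) and Trib3 at -0.14 ± 0.11 (adjusted p = 0.449). The count that fell was 9 without day 2 Trim33-deficient replicate 2, where 2.82% of all genes fell. The number that rose was 1 without day 2 Trim33-deficient replicate 2 or day 2.5 Trim33-deficient replicate 1 or 2. Of all genes 4.75, 5.33 and 5.56% rose in these fits.

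**Figure D4:**
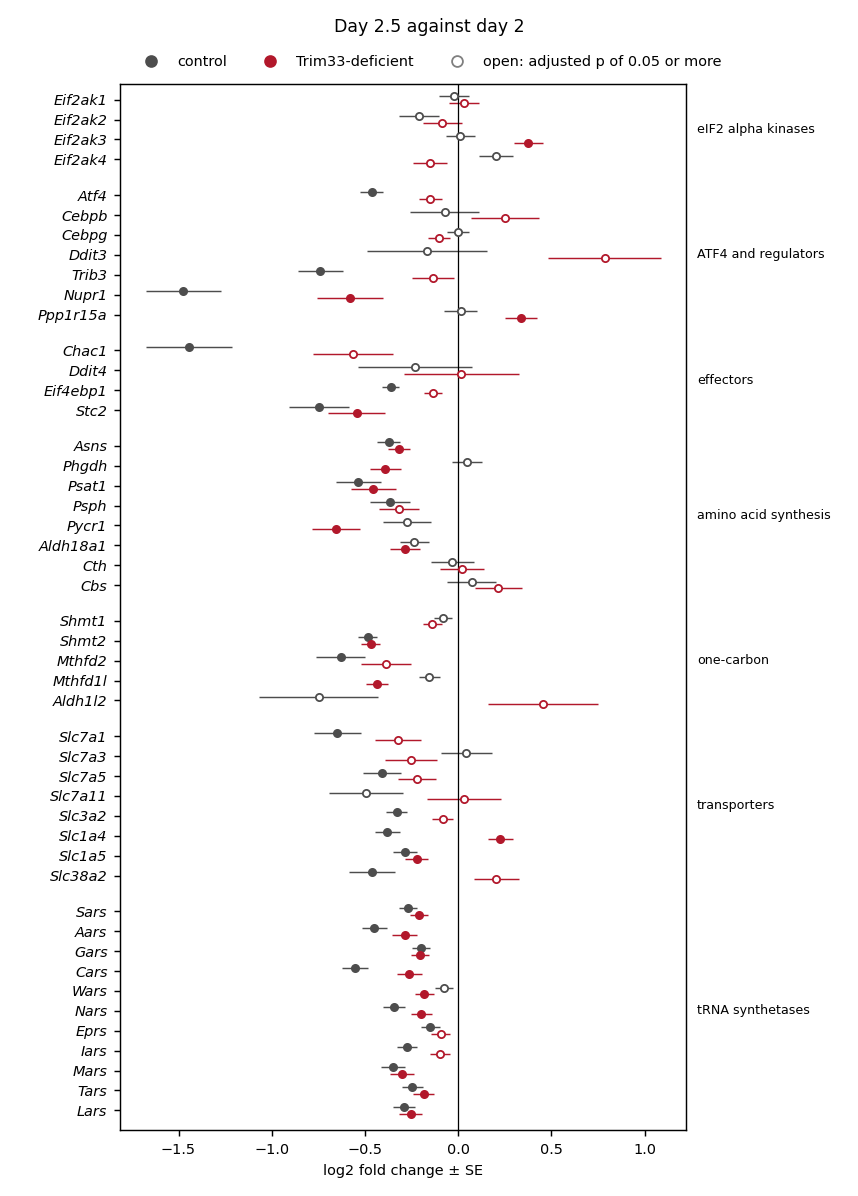
Log2 fold change ± SE of day 2.5 against day 2 for each member in control (grey) and Trim33-deficient (red) bodies, grouped by role (n = 3 libraries a group; filled points passed at an adjusted p under 0.05). In controls 27 members fell and 0 rose, and in Trim33-deficient bodies 19 fell and 3 rose.

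The comparison of genotypes on day 2.5 and that of days in controls share the day 2.5 controls, so their results are not separate, and the direct test of a difference is the interaction of genotype and day. By that test 1 member rose and 1 fell, against 2.77 and 1.24% of all genes (4.01% either way). Slc1a4 moved apart by 0.61 ± 0.09 (adjusted p = 0.00442), falling by 0.38 in controls and rising by 0.23 without Trim33. Phgdh gave -0.44 ± 0.11 (adjusted p = 0.0429), a call lost without any 1 library other than control replicate 2 of either day or day 2.5 control replicate 1 (adjusted p = 0.0581 to 0.120). Atf4 stood at 0.31 ± 0.09 (adjusted p = 0.0573), Trib3 at 0.60 ± 0.17 (0.0512), Slc38a2 at 0.67 ± 0.17 (0.0554) and Chac1 at 0.88 ± 0.32 (0.134). The median over members was 0.14 beside -0.0035 over all genes. Without day 2 control replicate 2, 7 members rose and 3 fell, when 4.80% of all genes rose and 3.55% fell. Without the 3 libraries that stood apart 12 rose, Atf4, Trib3, Chac1 and Slc38a2 among them, and 3 fell, when 7.70% of all genes rose and 5.73% fell. By DESeq2 6 rose and 2 fell, when 4.05% of all genes rose and 2.21% fell.

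**Figure D5:**
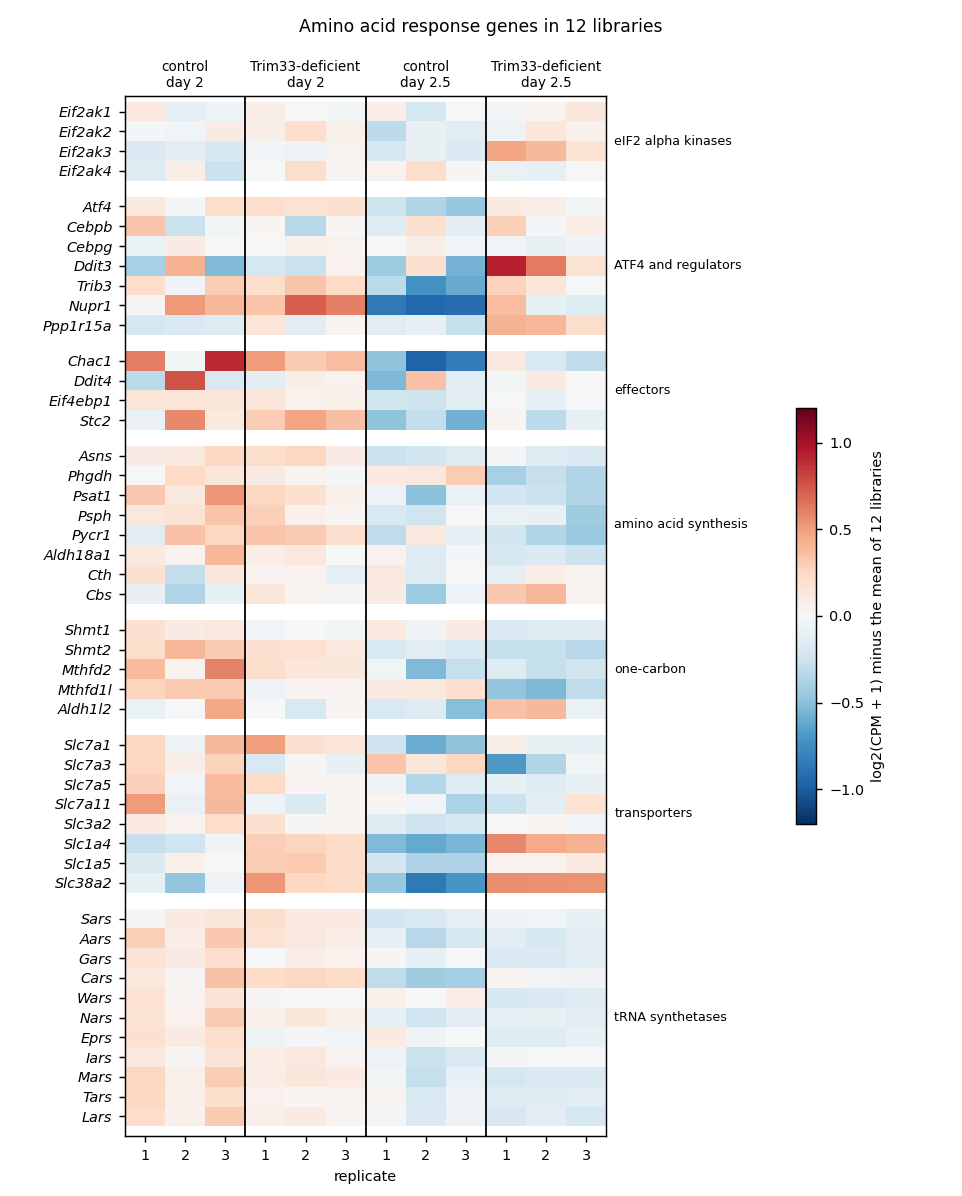
Log2(CPM + 1) of each member in each of the 12 libraries, minus the member's mean over all libraries (red above, blue below), with members in rows by role and libraries in columns by group. Most members were below their mean in day 2.5 controls, and in day 2.5 Trim33-deficient libraries Eif2ak3, Ppp1r15a, Slc1a4 and Slc38a2 stood above it while Phgdh, Mthfd1l and the tRNA synthetases other than Cars stood below it.

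Neighbouring genes of the pathway that are not members were described by the same fit, and their counts on day 2.5 stand beside the 22.0% of all genes that rose and the 20.7% that fell. Of 17 other ATF4 and stress genes tested, 9 (52.9%) rose and 2 (11.8%) fell on day 2.5 and 1 rose on day 2. Atf3, a stress-induced factor, rose by 1.53 ± 0.25 and Atf5, which is also under translational control, by 0.85 ± 0.14, while Gpt2, an alanine transaminase, fell by 0.47 ± 0.08 (adjusted p = 0.000165, 0.000217 and 0.000214). Of 19 endoplasmic reticulum response genes 7 (36.8%) rose and 0 fell on day 2.5, where 1 fell at an unadjusted p under 0.05 and 0 by DESeq2. Atf6, a sensor that is cleaved under stress, rose by 0.69 ± 0.10, Edem1, which disposes of misfolded glycoproteins, by 0.36 ± 0.06, and Herpud1, which acts in degradation at the endoplasmic reticulum, by 0.48 ± 0.11 (adjusted p = 8.54e-05, 0.000337 and 0.00177). The chaperones Hspa5 and Hsp90b1 stood at -0.03 and -0.01 (adjusted p = 0.775 and 0.913, named after their values were seen).

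Among genes of translation near eIF2, more fell than rose. Of 10 eIF2, eIF2B and related genes 5 fell (50%) and 1 rose on day 2.5, and of 9 other cytosolic tRNA synthetases 5 fell (55.6%) and 0 rose. At an unadjusted p under 0.05 and by DESeq2, 0 of these 9 rose. Eif2s1, the alpha subunit that the kinases phosphorylate, fell by 0.27 ± 0.05, and Eif2b3, a subunit of its exchange factor, by 0.40 ± 0.07 (adjusted p = 0.000192 and 0.000167). Kars, for lysine, fell by 0.34 ± 0.05 and Dars, for aspartate, by 0.21 ± 0.04 (adjusted p = 3.34e-05 and 0.000802). Of 17 mitochondrial synthetases 1 rose, Mars2 by 0.50 ± 0.11 (adjusted p = 0.00261), and 4 (23.5%) fell, close to the share of all genes.

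Other folate, transport and sensing genes were counted on day 2.5 in the same way. Of 16 folate and glycine enzymes 3 (18.8%) rose and 6 (37.5%) fell: Gart, of purine synthesis, fell by 0.42 ± 0.05, Sfxn1, the mitochondrial serine carrier, by 0.49 ± 0.06, and Aldh1l1, the cytosolic counterpart of Aldh1l2, rose by 1.18 ± 0.15 (adjusted p = 7.09e-06, 7.53e-06 and 1.76e-05). Of 14 other amino acid transporters 6 (42.9%) rose and 3 (21.4%) fell: Slc6a9, a glycine carrier, rose by 0.97 ± 0.15 and Slc38a4, a relative of Slc38a2, by 0.43 ± 0.07, while Slc7a6 fell by 0.48 ± 0.08 (adjusted p = 0.000111, 0.000216 and 0.000113). By DESeq2 4 of these 14 rose and 3 fell, and of the 16 folate and glycine enzymes 2 rose and 6 fell. In that fit 18.7% of all genes rose and 17.9% fell. Of 18 genes of amino acid sensing by mTORC1, 2 (11.1%) rose and 4 (22.2%) fell, a share that rose below that of all genes and a share that fell close to it: the Rag GTPase gene Rragc rose by 0.51 ± 0.08 and Tsc2, an mTORC1 inhibitor, by 0.45 ± 0.06, while Rragb fell by 0.71 ± 0.07 (adjusted p = 7.82e-05, 3.29e-05 and 2.65e-06).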

How the data were processed

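Each library had a deposited file of counts per gene. Per the submitters' processing notes, STAR, HTSeq, DESeq and the mouse build mm9 were used, with no versions; the strandedness and the handling of reads that match several genes were not given there. Lines that name no gene (no feature 55.9 to 60.5% of reads, ambiguous 0.144 to 0.189%) were left out, and 27 gene names turned into dates in 1 file were restored by row position. The deposited counts were fitted with edgeR 4.0.16 in R 4.3.3 (filterByExpr by group, TMM factors, robust glmQLFit and glmQLFTest on 4 group means over all 12 libraries, 8 residual degrees of freedom). A gene passed at a Benjamini-Hochberg adjusted p under 0.05 over all 14356 genes. The script was tested on simulated data. Where separate cultures are not named, p-values measure only the spread between these libraries, and 3 counts correspond to 0.179 to 0.318 CPM. Alternatives were DESeq2 1.42.0, other factors and filters, replicate blocks, fits of the compared groups alone, each library left out, and, chosen after seeing the data, fits without 2 or 3 libraries or without Rn45s.

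The members and lists were chosen with earlier results of these data known. All 47 members are accounted for by role, and values in every library are given for Atf4, Ddit3, Asns, Trib3 and Chac1 and for up to 4 members a role with the smallest adjusted p between genotypes. Up to 3 genes of each neighbouring list, and up to 4 members for the day comparisons and the interaction, are named by the same measure, and the other members named there were chosen after their values were seen. Promoters come from RefSeq windows of GRCm38.p6, a later build than mm9, and were matched by symbol alone.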

Additional observations from a re-analysis of the deposited data

Results flagged for a closer look

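For 8 of the 167 members and neighbouring genes tested (4.79%, near the 4.01% of all genes) the difference between genotypes itself differed between day 2 and day 2.5 by the interaction test (edgeR's quasi-likelihood test, adjusted over all genes, 3 libraries a group). Among the members these were Slc1a4 (log2 0.61, adjusted p = 0.00442) and Phgdh (-0.44, adjusted p = 0.0429). Among neighbouring genes, Soat2, a cholesterol esterifying enzyme, gave 1.78 (adjusted p = 0.0223), standing at -0.49 on day 2 and 1.29 on day 2.5. Soat2 rested on few reads, with 9, 7 and 9 counts in day 2.5 controls and 22, 22 and 20 in Trim33-deficient libraries. By DESeq2 0 of the other ATF4 and stress genes, the list that holds Soat2, passed in the interaction. The neutral and basic amino acid transporters Slc38a4 and Slc7a6 gave 0.38 and -0.54 (adjusted p = 0.0480 and 0.0145). The mitochondrial serine carrier Sfxn1 gave -0.30 (adjusted p = 0.0421). The Rag GTPase genes Rragb and Rragd gave -0.61 and -0.45 (adjusted p = 0.00685 and 0.0347), with day 2.5 differences of -0.71 and -0.49.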

How the results depend on the processing

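No member's call changed direction under any alternative. Of 24 day 2.5 genotype calls 16 passed in every alternative, of 6 on day 2, 3, of 27 in controls over time, 21, of 22 in Trim33-deficient bodies, 10, and of 2 in the interaction, 1 (Slc1a4). Leaving out 1 library at a time gave 2 to 4 members that rose and 1 to 6 that fell on day 2, 11 to 18 and 5 to 9 on day 2.5, 0 to 1 and 22 to 29 over time in controls, 1 to 4 and 9 to 25 over time in Trim33-deficient bodies, and 1 to 7 and 0 to 3 in the interaction. Without the 3 libraries that stood apart, 5 rose and 11 fell on day 2, 12 fell on day 2.5, 1 rose over time in controls and 5 in Trim33-deficient bodies, and 12 rose and 3 fell in the interaction. Of all genes 8.22% rose over time in controls and 13.5% in Trim33-deficient bodies in that fit. The interaction gave 3 that rose and 2 that fell with every gene with a count tested, 6 and 2 with DESeq2, and 3 that rose without the 2 libraries rich in Rn45s. Of all genes 2.05 and 1.08%, 4.05 and 2.21%, and 3.91% did in these fits. The causes were not tested. Between genotypes, libraries with the same replicate number correlated in their deviations at 0.089, 0.212 and -0.087 on day 2 and -0.019, -0.054 and -0.014 on day 2.5. Across days, controls with the same number correlated at 0.467, 0.557 and 0.068, and Trim33-deficient libraries at 0.217, -0.016 and 0.117. In no set were all 3 above 0.1, so the numbers were not taken as pairs, although control replicates 1 and 2 deviated together across days. With the replicate number as a block 7 rose and 2 fell in the interaction, where 5.10 and 3.04% of all genes did. With a replicate block within day or genotype 5 rose there, where 3.45% of all genes did. That block gave 1 that rose over time in controls, where 14.7% of all genes rose. Over time in Trim33-deficient bodies it gave 6 that rose and 29 that fell, where 15.2 and 14.7% of all genes did. That block ended the calls of Shmt1 on day 2, Gars on day 2.5 and Phgdh in the interaction. Aldh1l2, at 0.76 to 2.44 CPM, was the member most limited by depth.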
